A study of Homo sapiens with 12 samples.

Results

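The genes described here encode the proteins of the large (60S) subunit of the cytosolic ribosome. A list of 45 of them was looked up by gene name in the deposited tables, and 45 were found, each as 1 transcript, among 19972 transcripts in the count table, of which 10872 carried a gene name.

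The cells were human induced neurons, which H1 human embryonic stem cells become when the neurogenic transcription factor Ngn2 is overexpressed, harvested at day in vitro 14. Both groups grew without added glia and received 2 µg/mL doxycycline and 4 µM of cytosine arabinoside, a nucleoside analog that kills cells copying their DNA. All were harvested in 100 µg/mL cycloheximide, which stops ribosomes during elongation. Their LLPH gene was wild type (wt/wt) or carried an allele named Nterm on both copies (Nterm/Nterm), with 3 RNA-seq and 3 Ribo-seq libraries for each genotype. The sources used here give neither what the Nterm allele changes nor whether a genotype stands for 1 clone or several.

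Ribosomal proteins are made in the cytoplasm, carried into the nucleolus and built onto ribosomal RNA with the help of assembly factors, and the finished subunit returns to the cytoplasm. Many of their mRNAs begin with a C followed by a run of pyrimidines, the terminal oligopyrimidine (TOP) motif, through which growth signals such as mTOR raise or lower the translation of the whole class together. Neurons hold such mRNAs in axons and dendrites as well as in the cell body. LLPH is the human relative of an Aplysia protein of long-term synaptic facilitation.

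LLPH RNA, in CPM (counts scaled to library size), was 27.2, 28.7 and 27.4 in the wt/wt libraries against 30.8, 31.7 and 29.4 in the Nterm/Nterm ones, higher in each of the latter, and did not pass the test (log2 difference 0.14 ± 0.06 SE, edgeR adjusted p = 0.135). Footprints on LLPH were 6.72, 7.92 and 7.07 CPM against 3.12, 1.71 and 2.37 CPM, lower in every Nterm/Nterm library (log2 change -1.60 ± 0.19 SE, edgeR adjusted p = 1.77e-05). Library totals ran from 18944427 to 25089790 counts for RNA and from 12652833 to 16356419 for footprints. For the 6 footprint samples the genotype tag contradicts the title. Titles were followed, so each footprint direction rests on them. The columns of the deposited counts carry the genotypes of the titles.

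The listed start sites show at which members the annotated start has the TOP sequence that the class is known for. In the RefSeq promoter table (GRCh38.p14), 38 of the 45 members had a listed start, and at 28 of these 38 (73.7%) a start was a C followed by at least 4 pyrimidines, against 5.14% of all 27305 genes in that table. The same held for 18 of 24 small-subunit ribosomal protein genes and 9 of 10 other mRNAs known as TOP mRNAs, and for 4 of 41 large-subunit assembly factors. The letters CTTTC, which can lie inside such a pyrimidine run, stood on the transcribed strand within the 30 bases around the start at 22 of the 38 members (57.9%) and at 5.29% of all genes, and on the other strand at 5.26% and 4.00%. Printed here are the starts of some of the members named in the results that follow. Each has 10 bases before the RefSeq start and 20 from it, 5′ to 3′ on the gene's strand, and capitals mark the unbroken run of C and T that holds the start.
RPL28 (chr19:55385922-55385951, plus strand): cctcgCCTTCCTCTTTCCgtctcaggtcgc
RPL3 (chr22:39319604-39319633, minus strand): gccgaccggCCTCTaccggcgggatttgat
RPL13 (chr16:89560672-89560701, plus strand): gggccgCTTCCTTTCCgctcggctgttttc
RPL17 (chr18:49492446-49492475, minus strand): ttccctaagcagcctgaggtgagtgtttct
RPL22 (chr1:6199576-6199605, minus strand): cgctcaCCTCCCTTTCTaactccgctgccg
RPL14 (chr3:40457329-40457358, plus strand): ggTCTTCTTCCTTCTCgcctaacgccgcca
RPL10 (chrX:154398367-154398396, plus strand): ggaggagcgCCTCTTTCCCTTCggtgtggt
RPL32 (chr3:12841546-12841575, minus strand): acgacccatcagcccttgcgcgccaccgtc
RPL35 (chr9:124861938-124861967, minus strand): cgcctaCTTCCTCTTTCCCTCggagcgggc
RPL39 (chrX:119791611-119791640, minus strand): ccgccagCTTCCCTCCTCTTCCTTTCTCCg
RPLP1 (chr15:69452808-69452837, plus strand): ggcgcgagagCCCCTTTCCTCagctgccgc
RPLP2 (chr11:809957-809986, plus strand): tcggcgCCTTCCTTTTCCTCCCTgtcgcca
RPL17 and RPL32 have no such run at the listed start, and RPL3 has a short one that ends before the required length. Not printed are RPL26 and RPL36A, whose listed start is a C followed by 11 and 9 pyrimidines. Whether these starts are the ones used in these neurons was not measured.

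The 45 mRNAs together made up a smaller share of the RNA in Nterm/Nterm than in wt/wt libraries, while their shares of the footprints overlapped. They took 2.04%, 1.96% and 1.90% of the counts of the wt/wt RNA libraries and 1.85%, 1.74% and 1.68% of the Nterm/Nterm ones, or 1.97% ± 0.069 and 1.75% ± 0.084 (SD, n = 3). The RNA groups did not overlap. Their share of footprints was 1.14%, 1.11% and 1.20% in wt/wt against 1.24%, 1.23% and 1.16% in Nterm/Nterm libraries, or 1.15% ± 0.045 and 1.21% ± 0.040 (SD, n = 3). In both genotypes the class held a smaller share of footprints than of RNA.

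**Figure D1:**
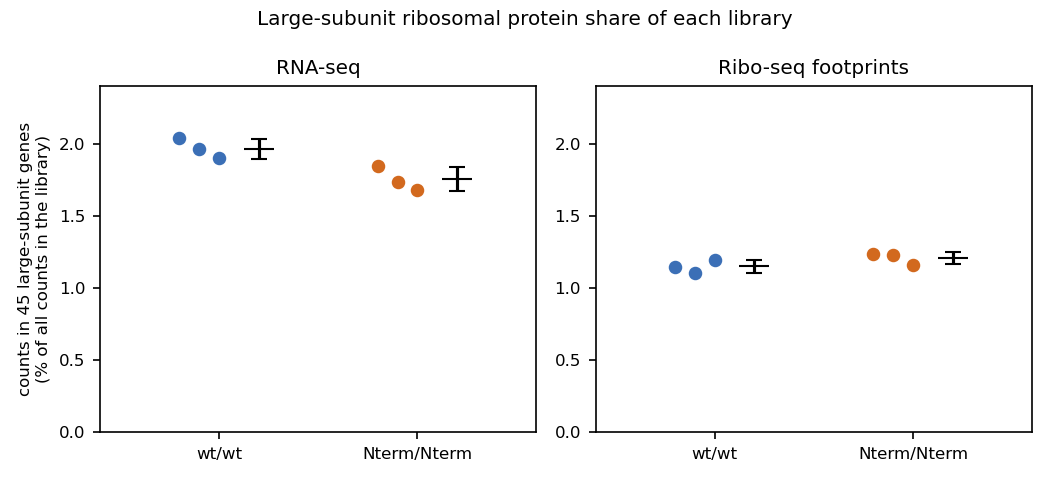
Share of each library's counts that fell in the 45 large-subunit genes (vertical axis, % of all counts), for RNA-seq and Ribo-seq, with 1 point per library and the mean ± SD of 3 libraries beside it. The wt/wt RNA libraries lie at 1.90% to 2.04%, above the Nterm/Nterm ones at 1.68% to 1.85%, and the footprint groups overlap.

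In RNA, 32 of the 45 members were lower in Nterm/Nterm than in wt/wt neurons and 0 were higher (edgeR quasi-likelihood test, adjusted p below 0.05), where 10.6% of the 14659 transcripts tested were lower and 7.25% higher. The other 13 did not pass. The median member changed by -0.17 on the log2 scale, to 0.886 of the wt/wt level, at percentile 22.2 of all transcripts tested. Single members ranged from -0.25 to -0.06, against a median of 0.00 for all transcripts tested. The members were abundant, with mean RNA levels at percentiles 89.0 (RPL36) to 99.6 (RPL4) of all transcripts tested. Shares given for all transcripts cover every level, so they are not matched for the power to call small changes. All 45 fitted values were below 0, as were 50.1% of all transcripts, and 40 members were lower at an unadjusted p below 0.05, as were 17.5% of all transcripts. The 3 libraries of each genotype did not overlap for 32 members, with Nterm/Nterm lower, and for 18.8% of all transcripts tested. In RNA from a whole culture, fewer cells of a type and less RNA per cell cannot be told apart.

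Single libraries weighed on the count of called members but not on the sign of the fitted values. Without wt/wt RNA replicate 1 the count fell from 32 to 3 (RPL3, RPL28 and RPL36A; 4.13% of all transcripts were then lower), and without wt/wt RNA replicate 2 to 4 (RPL3, RPL4, RPL28 and RPL36; 4.54%). It was 19 without Nterm/Nterm RNA replicate 2 (11.6%) and 21 without replicate 3 (7.71%). All 45 values stayed below 0 in each of these 4 fits, with medians from -0.18 to -0.14. With the replicate number as a block, which the RNA libraries' shared deviations allowed, 42 of 45 members were lower, and so were 16.4% of all transcripts. Members it left above the threshold were RPL22, RPL37 and RPLP2.

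Markers of other cells moved along with this result, and their part in it was not tested. Of the 11 mesenchymal markers listed, 7 had a named transcript, of which 6 were lower and 1 higher in Nterm/Nterm RNA, and their summed level was 2651 to 3185 CPM in wt/wt against 1817 to 2274 in Nterm/Nterm libraries. Neural progenitor markers were lower for 4 and higher for 1 of 6, pluripotency markers lower for 2 of 3 and proliferation markers lower for 2 of 3. Neuronal markers were higher for 7 of 12, and their sum was 13601 to 14547 CPM in wt/wt against 15709 to 16974 in Nterm/Nterm libraries. Of 4 microglial markers only CSF1R had a named transcript, and it was lower. Of 5 astrocyte markers only SLC1A3 had one, and at 22.0 to 27.8 CPM it did not pass. A single gene does not show that its cell type was present. The median member stood 0.14, 0.08 and 0.04 above the mean of the 6 RNA libraries in wt/wt replicates 1, 2 and 3, and at 0.00, -0.10 and -0.14 in Nterm/Nterm. For the mesenchymal markers the same quantity was 0.39, 0.44 and 0.14 for wt/wt against -0.32, -0.14 and -0.59 for Nterm/Nterm.

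The largest fitted falls in RNA were those of RPL17, RPL28, RPL36, RPL3 and RPL13. Across the 45 genes the RNA changes had an SD of 0.049, close to the median SE of a single member of 0.047. The order of the members by RNA change is therefore uncertain, and a member that passed is not thereby shown to differ from one that did not. RPL3 sits close to the peptidyl transferase centre, where peptide bonds form, and its RNA was 1113, 1061 and 1027 CPM in wt/wt against 956, 901 and 860 CPM in Nterm/Nterm. That is a log2 change of -0.24 ± 0.05 (SE, edgeR adjusted p = 0.00592), with the genotypes apart. RPL28, a protein of the subunit's surface, had 378, 348 and 333 CPM in wt/wt against 305, 293 and 291 CPM in Nterm/Nterm. Its change, -0.25 ± 0.05 (edgeR adjusted p = 0.00557), had the lowest adjusted p of the 45. RPL28 and RPL3 were also called without wt/wt RNA replicate 1 and without replicate 2. RPL13 fell from 649, 608 and 575 CPM to 552, 511 and 495 CPM, and RPL36 from 162, 144 and 147 CPM to 136, 129 and 120 CPM, again with no overlap. Neither passed without wt/wt RNA replicate 1 (RPL13 edgeR adjusted p = 0.0763, RPL36 0.0906).

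RPL17, which lines the tunnel through which the new protein leaves, had the largest fitted fall of the 45 and one of the least certain counts. Its RNA was 382, 376 and 351 CPM in wt/wt against 338, 308 and 284 CPM in Nterm/Nterm (log2 change -0.25 ± 0.06 SE, edgeR adjusted p = 0.0126). A readthrough transcript, RPL17-C18orf32, is listed beside it with 1605 to 2071 RNA counts per library and can share its reads. The RNA difference of this transcript was opposite in sign and did not pass (log2 difference 0.08 ± 0.05 SE, edgeR adjusted p = 0.29). The size and rank of the RPL17 fall can therefore depend on how shared reads were counted. RPL17 did not pass without wt/wt RNA replicate 1 or 2 (edgeR adjusted p = 0.0768 and 0.0674).

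At the other end, RPL37, RPL22, RPL14, RPLP2 and RPL41 had the smallest RNA differences, and their genotypes overlapped. RPL22 is a protein that mice can lose and live, with the paralog RPL22L1 in its place. Its RNA was 295, 290 and 300 CPM in wt/wt against 294, 275 and 279 CPM in Nterm/Nterm (log2 difference -0.06 ± 0.04 SE, edgeR adjusted p = 0.324). RPL22L1 did not pass in RNA (log2 difference -0.47 ± 0.17 SE, edgeR adjusted p = 0.0718), though its genotypes were apart, with Nterm/Nterm lower. Its footprints fell by a similar amount and passed (log2 change -0.43 ± 0.10 SE, edgeR adjusted p = 0.00537). The fitted ratio change of RPL22L1 was 0.05 ± 0.18 (SE). RPL37, a zinc-binding protein, had 393, 377 and 358 CPM in wt/wt against 386, 350 and 346 CPM in Nterm/Nterm. RPL14 had 436, 422 and 416 CPM against 428, 392 and 388 CPM. In RPL22, RPL37 and RPL14, Nterm/Nterm replicate 1 lay within the wt/wt range. With the replicate block RPL14 passed (edgeR adjusted p = 0.0308), and RPL22 did not (edgeR adjusted p = 0.114).

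**Figure D2:**
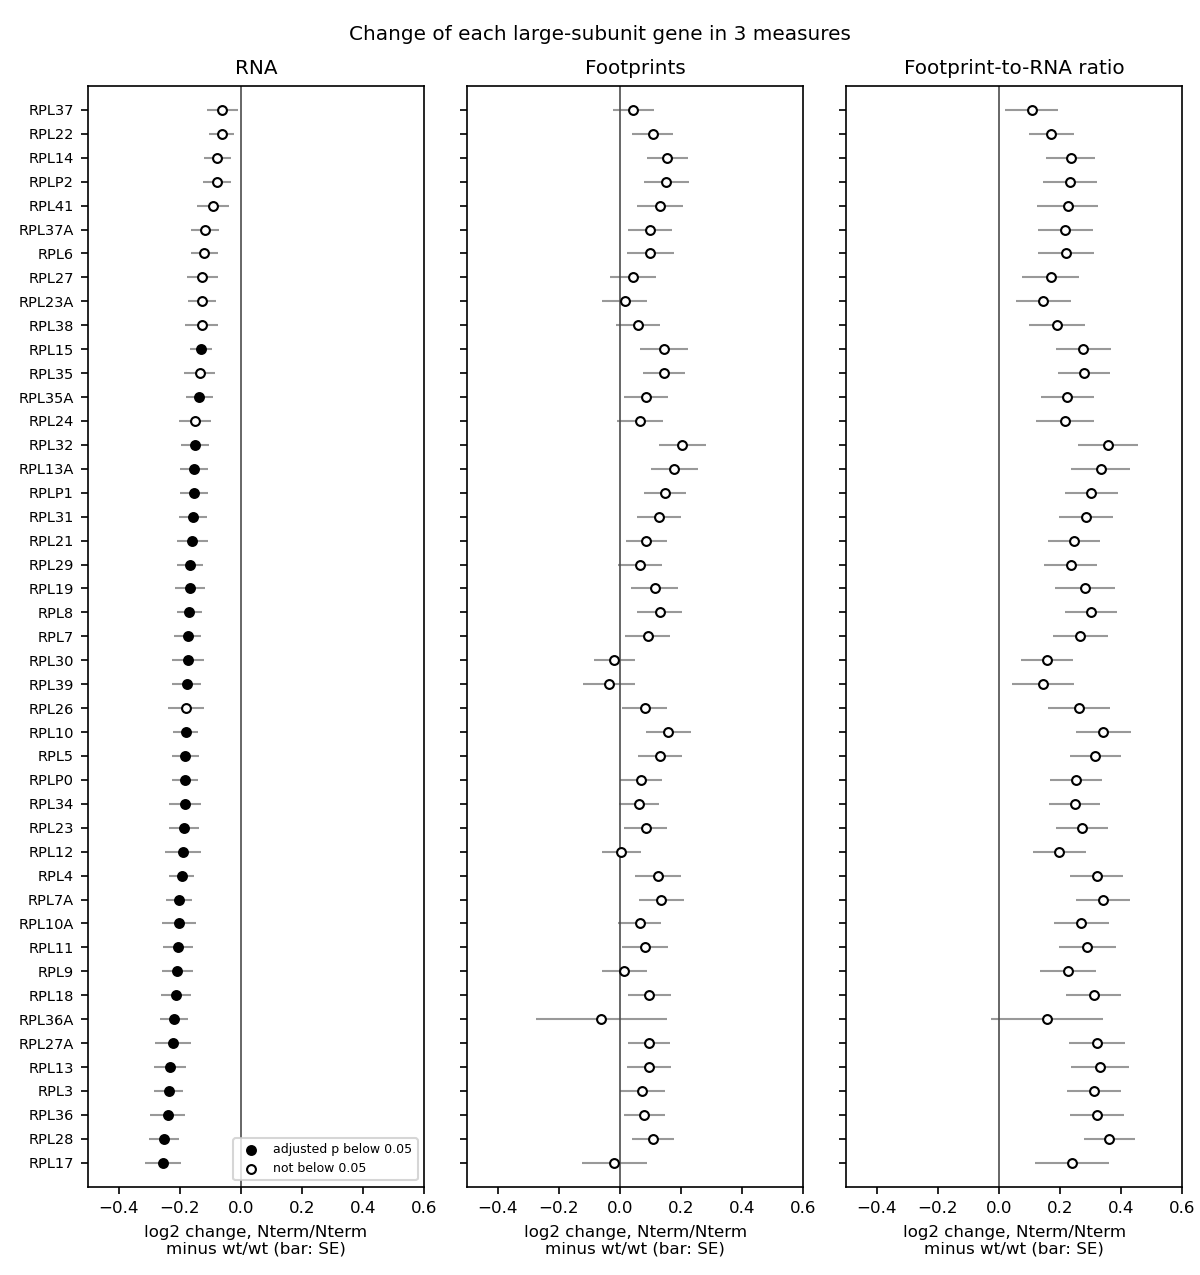
Fitted log2 change of each of the 45 genes, Nterm/Nterm minus wt/wt (horizontal axis), in RNA, footprints and the footprint-to-RNA ratio, with genes ordered by their RNA change, bars for the SE and filled points for an adjusted p below 0.05. In RNA 32 points are filled and 45 lie left of 0, while no point is filled in the other panels, where 41 and 45 lie right of 0.

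The P stalk is the flexible arm that recruits elongation factors to the ribosome: RPLP0 sits at its base beside RPL12, and RPLP1 and RPLP2 form dimers on RPLP0. Of these 4 genes, 3 were lower in RNA, as were 32 of all 45 members and 10.6% of all transcripts. Whether this or any role group below differs from the other members was not tested. RPLP0 had 895, 855 and 846 CPM in wt/wt against 801, 755 and 732 CPM in Nterm/Nterm (log2 change -0.18 ± 0.04 SE, edgeR adjusted p = 0.0139). RPLP1 had 485, 471 and 452 CPM and 447, 416 and 403 CPM, a narrow gap between the genotypes (-0.15 ± 0.05 SE, edgeR adjusted p = 0.0402). RPLP1 no longer passed when wt/wt RNA replicate 1 or 2, or Nterm/Nterm RNA replicate 2 or 3, was left out (edgeR adjusted p = 0.183, 0.142, 0.0821 and 0.0975). RPLP2, their partner, had 224, 225 and 214 CPM and 219, 212 and 198 CPM, with overlap, and did not pass (-0.08 ± 0.05 SE, edgeR adjusted p = 0.273).

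RPL5 and RPL11 join the 5S ribosomal RNA in a particle that, when not built into ribosomes, can bind MDM2 and so stabilise p53. Both were lower in Nterm/Nterm RNA, with 573, 559 and 531 CPM against 506, 490 and 469 CPM for RPL5 (log2 change -0.18 ± 0.04 SE, edgeR adjusted p = 0.0144). RPL11 had 418, 388 and 380 CPM against 358, 344 and 326 CPM (-0.21 ± 0.05 SE, edgeR adjusted p = 0.0137). For both genes every wt/wt library was above every Nterm/Nterm library. Neither passed without wt/wt RNA replicate 1 or 2. RPL10A, of the L1 stalk, which moves with the departing tRNA, was lower too (-0.20 ± 0.06 SE, edgeR adjusted p = 0.0261).

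Among 9 proteins at or near the exit tunnel, 5 were lower in RNA, against 32 of all 45 members and 10.6% of all transcripts. RPL39, a very small protein of the tunnel wall, had 191, 184 and 180 CPM in wt/wt against 173, 158 and 160 CPM in Nterm/Nterm (log2 change -0.18 ± 0.05 SE, edgeR adjusted p = 0.0225). RPL26 did not pass (-0.18 ± 0.06 SE, edgeR adjusted p = 0.051), with 483, 455 and 429 CPM against 434, 399 and 373 CPM, where wt/wt replicate 3 lay below Nterm/Nterm replicate 1. RPL35 did not pass either, at 201, 184 and 190 CPM against 186, 169 and 169 CPM (edgeR adjusted p = 0.0903). The 9 fitted changes ran from -0.25 for RPL17 to -0.06 for RPL22.

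RPL10, RPL24 and RPL29 join the subunit late, and RPL10 completes the peptidyl transferase region in the cytoplasm. RPL10 was lower, with 626, 608 and 598 CPM in wt/wt against 564, 534 and 518 CPM in Nterm/Nterm (log2 change -0.18 ± 0.04 SE, edgeR adjusted p = 0.0125), as was RPL29, and RPL24 did not pass (edgeR adjusted p = 0.075). RPL10 is X-linked, as are RPL36A and RPL39. These 3 were all lower in RNA, as were 32 of all 45 members and 10.6% of all transcripts. Of 4 proteins in the bridges to the small subunit, RPL19 and RPL30 were lower and RPL24 and RPL41 did not pass. RPL41, one of the shortest human proteins, had 509, 495 and 477 CPM against 497, 463 and 430 CPM (-0.09 ± 0.05 SE, edgeR adjusted p = 0.25), and with the replicate block it passed (edgeR adjusted p = 0.0115).

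RPL38 is known from mice with patterning defects of the skeleton. Its RNA groups were just apart, at 208, 199 and 196 CPM in wt/wt against 195, 188 and 169 CPM in Nterm/Nterm, and it did not pass (log2 difference -0.13 ± 0.05 SE, edgeR adjusted p = 0.121) until the replicate block was used (edgeR adjusted p = 0.00453). Of 10 members whose loss causes Diamond-Blackfan anaemia, a failure of red cell production, 7 were lower. Of all 45 members 32 were lower, and of all transcripts 10.6%. The 7 were RPL5, RPL9, RPL11, RPL15, RPL18, RPL31 and RPL35A. RPL26, RPL27 and RPL35 did not pass. RPL35A, at 200, 195 and 193 CPM against 186, 178 and 171 CPM, was close to the threshold (edgeR adjusted p = 0.0487).

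Members with and without a TOP sequence at a listed start had similar median RNA changes. A member without it at the listed start may still use a TOP start in these cells. Of the 28 with a C and at least 4 pyrimidines, 19 were lower, with a median log2 change of -0.17 and values from -0.25 to -0.06. Of the 10 without, 8 were lower, with a median of -0.18 and values from -0.25 to -0.12. RPL17 and RPL32, shown above without a pyrimidine run, were both lower. Over all 45 members 32 were lower, and 10.6% of all transcripts were. The difference between the members with and without such a start was not tested.

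**Figure D3:**
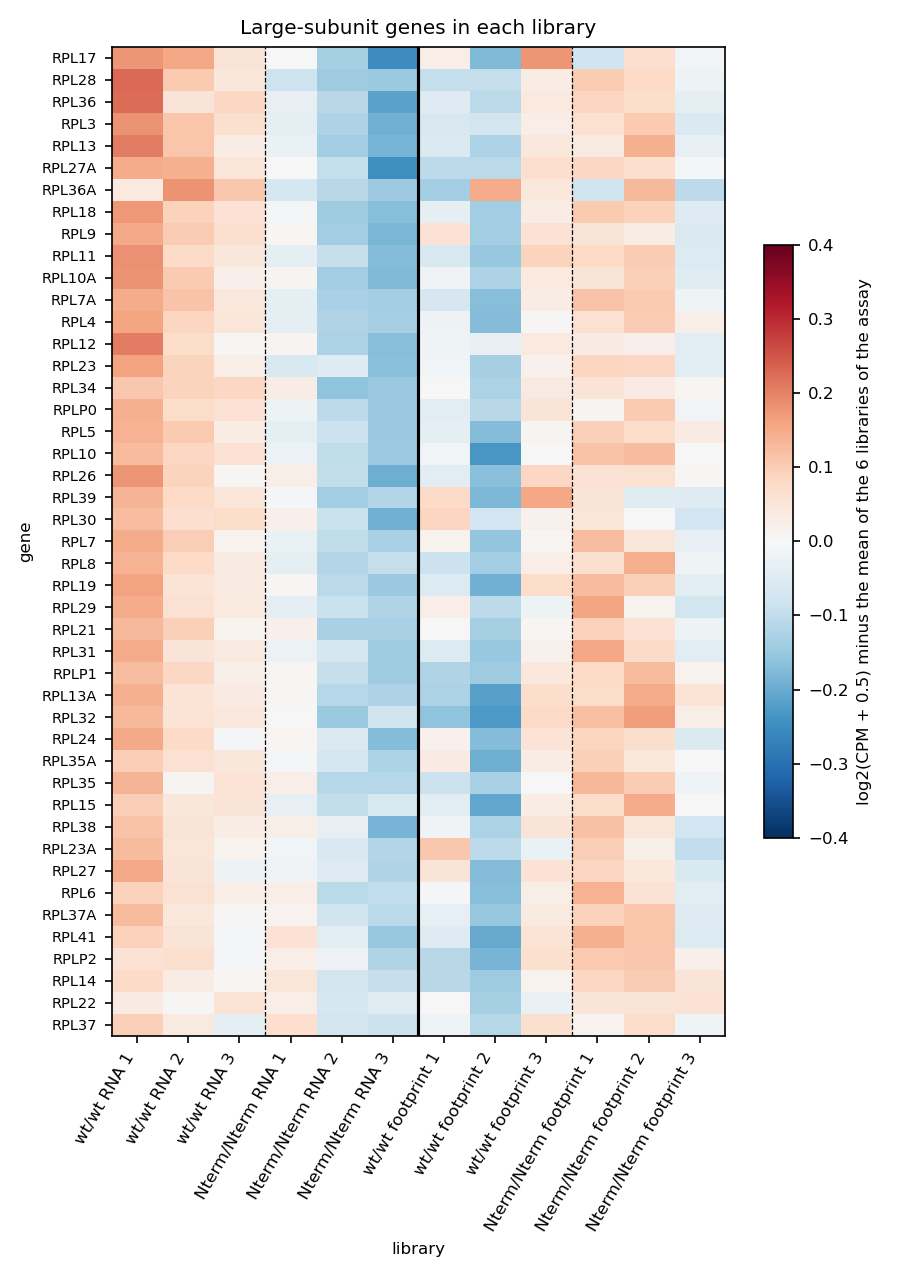
Level of each of the 45 genes (rows, ordered by RNA change) in each of the 12 libraries (columns), as log2(CPM + 0.5) minus the mean of the 6 libraries of that assay, with red above and blue below it. Among the RNA columns wt/wt replicate 1 is the reddest and Nterm/Nterm replicates 2 and 3 are the bluest, and the footprint columns show wt/wt replicate 2 as the lowest and Nterm/Nterm replicate 3 below the other Nterm/Nterm libraries.

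Footprints of the same genes did not follow the RNA downwards. In footprints 0 of 45 members were lower and 0 higher by edgeR, and DESeq2 and limma-voom called 0 as well, while 8.91% of the 13566 transcripts tested were lower and 4.36% higher by edgeR. At an unadjusted p below 0.05, 7 members were higher and 0 lower, against 11.9% and 15.5% of all transcripts. The median member was at 0.09 on the log2 scale, or 6.49% above wt/wt, with values from -0.06 to 0.21, against 0.01 for all transcripts. That median lay at percentile 69.8 of all transcripts tested. The fitted value was above 0 for 41 members and for 52.1% of all transcripts. Library by library, the median member stood at -0.04, -0.14 and 0.04 for wt/wt against 0.08, 0.08 and -0.03 for Nterm/Nterm, so wt/wt replicate 3 and Nterm/Nterm replicate 3 crossed. Mesenchymal markers were lower in footprints too, at 4 of 7, and neuronal markers higher at 3 of 12, and the part of either was not tested.

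Footprint groups were apart, with Nterm/Nterm higher, for 5 members, RPL4, RPL5, RPL10, RPL14 and RPL22, and for 14.8% of all transcripts. RPL5 had 423, 384 and 438 CPM in wt/wt against 464, 456 and 444 CPM in Nterm/Nterm (edgeR adjusted p = 0.253). RPL10 had 288, 247 and 290.1 CPM against 314, 316 and 290.4 CPM, so that the groups touched (edgeR adjusted p = 0.175). RPL14 had 276, 270 and 301 CPM against 316, 320 and 309 CPM (edgeR adjusted p = 0.144). RPL22 had 76.0, 69.3 and 74.6 CPM against 78.8, 78.7 and 79.2 CPM (edgeR adjusted p = 0.318). Each of the 5 gaps was smaller than the SD of the wt/wt libraries.

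RPL32, RPL13A, RPL10, RPL14 and RPLP2 had the largest footprint differences. The SD of the footprint differences over the 45 genes, 0.057, was below the median SE of a single member, 0.073. These data therefore do not order the members by footprint difference. RPL32 had 168, 160 and 199 CPM in wt/wt against 205, 211 and 192 CPM in Nterm/Nterm, with overlap at replicate 3 (log2 difference 0.21 ± 0.08 SE, 95% interval 0.04 to 0.37, edgeR adjusted p = 0.0863). RPL13A, which also has a known role outside the ribosome in silencing inflammatory mRNAs, had 344, 324 and 395 CPM against 395, 417 and 390 CPM (0.18 ± 0.08 SE, edgeR adjusted p = 0.139). RPLP2 had 238, 226 and 268 CPM against 276, 277 and 260 CPM (0.15 ± 0.07 SE, edgeR adjusted p = 0.181). In these 3 genes wt/wt replicate 3 was the highest wt/wt library, and without it each passed, as did 5.56% of all transcripts (RPL32 edgeR adjusted p = 0.0114, RPL13A 0.0244, RPLP2 0.0458). Without a filter on low counts RPL32 alone of the 45 passed (edgeR adjusted p = 0.0349), as did 4.75% of all transcripts.

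Footprints of 4 members with called RNA falls, RPL3, RPL28, RPL36 and RPL11, had fitted differences above 0. Fitted footprint differences below 0 were found for 4 of the 45 members. They were RPL17 (-0.02), RPL30 (-0.02), RPL36A (-0.06) and RPL39 (-0.04), which had called RNA falls as well. RPL3 had 496, 493 and 529 CPM in wt/wt against 541, 558 and 499 CPM in Nterm/Nterm, a log2 difference of 0.07 with a 95% interval of -0.08 to 0.23. RPL28 had 248, 249 and 271 CPM against 285, 281 and 262 CPM, with an interval of -0.04 to 0.25. RPL36 had 182, 175 and 194 CPM against 200.3, 198 and 184 CPM. RPL11 had 256, 240 and 284 CPM against 282, 286 and 257 CPM. In RPL3, RPL28, RPL36 and RPL11 the genotypes overlapped, and none of them passed by edgeR.

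The ratio of footprints to RNA, often read as translational efficiency, combines both readouts. Its fitted change was above 0 for 45 of 45 members, as for 53.7% of all transcripts, and 0 members passed by edgeR, which called 0.00676% of the 14786 transcripts higher (1 transcript) and 0.0135% lower (2 transcripts). At an unadjusted p below 0.05, 37 members were higher and 0 lower, against 2.89% and 1.71% of all transcripts. These shares too cover transcripts of every level, while the members were all abundant in RNA. The median member changed by 0.26 on the log2 scale, a ratio of 1.20, with values from 0.11 to 0.36, and lay at percentile 91.4 of all transcripts tested, whose median was 0.01. The lowest adjusted p of a member was 0.616.

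Other tools and fits made calls that differed in number. With same-numbered RNA and footprint libraries paired, edgeR called 3 members higher, RPL28, RPL32 and RPL36, and 0.108% of all transcripts. DESeq2 adjusted p-values for 1026 transcripts, and among these it called 27 (2.63%) higher, of which 14 were members. It gave no adjusted p to 6 members: RPL30, RPL34, RPL36, RPL36A, RPL38 and RPL39. With adjustment over all transcripts, it called 5 higher, of which 1 was a member. In the authors' deposited table, the Nterm/Nterm-to-wt/wt quotient of the ratio was above 1 for 45 of 45 members, from 1.07 to 1.27, and for 50.2% of all 10932 transcripts. The authors' deposited table gives an unadjusted p below 0.05 with a quotient above 1 for 25 members, and for 2.36% of its transcripts.

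RPL28, RPL32, RPL10, RPL7A and RPL13A had the largest ratio changes. RPL28 was at 0.36 ± 0.08 (SE, 95% interval 0.19 to 0.54, edgeR adjusted p = 0.616), and by DESeq2 its adjusted p was 0.0221. The authors' deposited table puts RPL28 at a ratio of 0.704 in wt/wt against 0.891 in Nterm/Nterm, and RPL32 at 0.488 and 0.619. RPL32 was at 0.36 ± 0.10 (SE, 95% interval 0.15 to 0.56). RPL10 was at 0.34 ± 0.09, RPL7A at 0.34 ± 0.09 and RPL13A at 0.33 ± 0.10 (SE), and DESeq2 called all 3, with adjusted p of 0.0221, 0.0221 and 0.0349. RPL7A had RNA of 665, 650 and 619 CPM against 585, 549 and 547 CPM and footprints of 391, 364 and 418 CPM against 443, 441 and 405 CPM. The RNA of RPL13A was 1003, 943 and 929 CPM in wt/wt against 912, 839 and 835 CPM in Nterm/Nterm, and that of RPL32 was 361, 344 and 341 CPM and 330, 298 and 313 CPM.

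The smallest ratio change was that of RPL37, at 0.11 ± 0.09 (SE, 95% interval -0.07 to 0.29), with footprints of 171, 160 and 181 CPM in wt/wt against 175, 182 and 171 CPM in Nterm/Nterm. RPL39 was at 0.14 ± 0.10 (SE), with 46.4, 38.8 and 49.1 CPM of footprints against 45.7, 42.5 and 42.4 CPM. RPL38 was at 0.19 ± 0.09 (SE), with 197, 182 and 206 CPM against 216, 206 and 189 CPM. Across the 45 genes the ratio changes had an SD of 0.063, below the median SE of a single member of 0.089, so these data do not order the members by their ratio change.

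**Figure D4:**
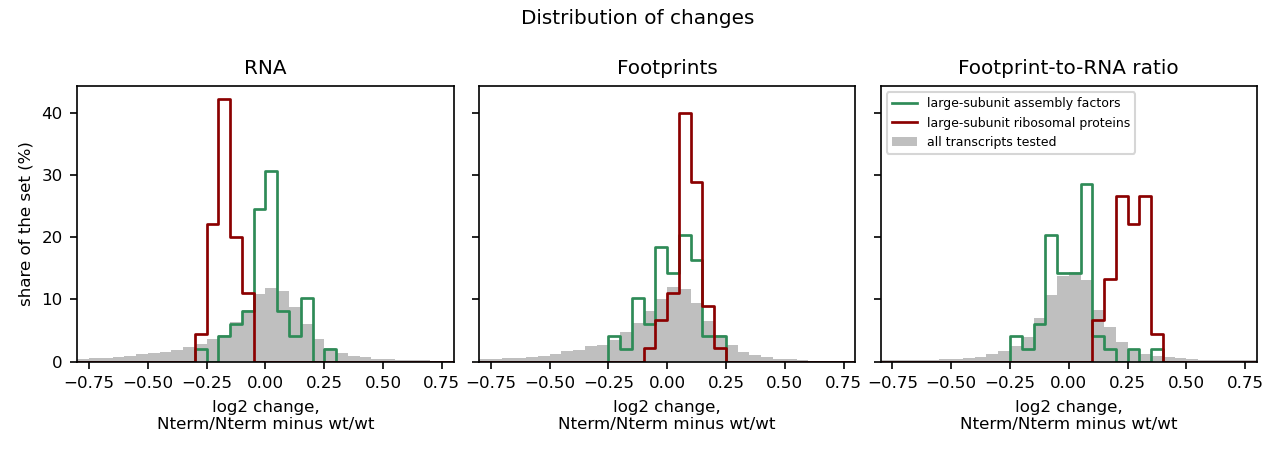
Distribution of fitted log2 changes, Nterm/Nterm minus wt/wt (horizontal axis), as the share of each set per bin (vertical axis, %), for all transcripts tested (grey), the 45 large-subunit genes (dark red) and large-subunit assembly factors (green). The 45 genes lie to the left of most transcripts in RNA, between -0.25 and -0.06, and to the right in the footprint-to-RNA ratio, between 0.11 and 0.36, while the assembly factors are spread about 0. The axis leaves out the tails of the grey set.

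Within a genotype, the members spanned a wide range of footprints per RNA. In wt/wt neurons the ratio, relative to the median of all transcripts tested, was below it for 38 of 45 members and above it for 1, with 6 not passing (edgeR, adjusted p below 0.05), while 40.7% of all transcripts were below and 39.5% above. The median member was at -0.75 on the log2 scale, or 0.593 of the median transcript. In Nterm/Nterm neurons 35 members were below and 5 above, with a median of -0.53, and 40% and 39.3% of all transcripts were called. The order of the members was nearly the same in both genotypes (Pearson's r 0.999 and Spearman's rho 0.990 over 45 genes, which share libraries). The sources used here do not say whether both assays counted over the same stretch of each transcript, so differences between genes in this ratio can include differences in the length counted.

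RPL35, RPL36 and RPL35A had the most footprints per RNA. RPL35, at the tunnel exit where targeting factors dock, was the only member above the median transcript in wt/wt, at 0.18 ± 0.06 (SE, edgeR adjusted p = 0.0114), with footprints of 237, 230 and 252 CPM in wt/wt against 277, 270 and 249 CPM in Nterm/Nterm. RPL36 was at 0.13 ± 0.06 and RPL35A at 0.13 ± 0.06 (SE), and neither passed in wt/wt. RPL35A had footprints of 250, 213 and 249 CPM in wt/wt against 261, 251 and 244 CPM in Nterm/Nterm. These 3 do not differ from each other beyond their errors.

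RPL36A, RPL17 and RPL26 had the fewest footprints per RNA, far below the other members. RPL36A had RNA of 144, 158 and 151 CPM in wt/wt against 133, 129 and 126 CPM in Nterm/Nterm, but footprints of 1.99, 2.52 and 2.31 CPM and 2.08, 2.49 and 2.04 CPM. Its ratio in wt/wt was -6.18 ± 0.09 (SE) on the log2 scale, or 0.0138 of the median transcript. RPL36A was the only member with fewer than 100 footprint counts in a library, down to 26, so its footprint difference has a wide 95% interval of -0.51 to 0.39. RPL17 was at -4.43 ± 0.09 (SE), with footprints of 19.2, 16.7 and 21.4 CPM in wt/wt against 17.9, 19.8 and 18.7 CPM in Nterm/Nterm. RPL26 was at -3.10 ± 0.07 (SE), with 58.6, 53.7 and 64.0 CPM and 62.9, 63.0 and 60.6 CPM. The steps between these 3 are many times their SE.

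Both RPL36A and RPL17 have a listed readthrough transcript with RNA counts but almost no footprints. RPL36A-HNRNPH2 had 1075 to 2091 RNA counts and 0 or 1 footprint counts per library, and RPL17-C18orf32 had 1605 to 2071 and 1 to 4. Adding each to its gene gave a ratio of -6.72 for RPL36A and -4.71 for RPL17. This adds RNA and almost no footprints, so it could only lower the ratios. It therefore does not test whether shared reads contribute to them. The sources used here do not say how reads with several matches were handled, and ribosomal protein genes have many processed pseudogenes, so the levels of these genes are uncertain. A change between genotypes compares the same transcript under the same counting.

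RPL41, RPL39 and RPL22 came next, at -2.29, -2.20 and -2.16 in wt/wt, each with an SE of 0.05 to 0.07. RPL41 and RPL39 encode the shortest products of the class, and RPL22 does not. RPL41 had footprints of 113, 102 and 122 CPM in wt/wt against 129, 127 and 113 CPM in Nterm/Nterm. Of the stalk genes RPLP0 and RPLP1 lay at -1.60 and -1.44, with RPLP0 footprints of 315, 301 and 336 CPM against 327, 349 and 322 CPM. RPLP1 had 185, 182 and 207 CPM against 213, 220.1 and 203 CPM. RPLP2, their partner in the same dimers, was at -0.01 ± 0.06 (SE), level with the median transcript. RPL13 lay at -1.08, with footprints of 316, 302 and 339 CPM against 338, 364 and 322 CPM.

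**Figure D5:**
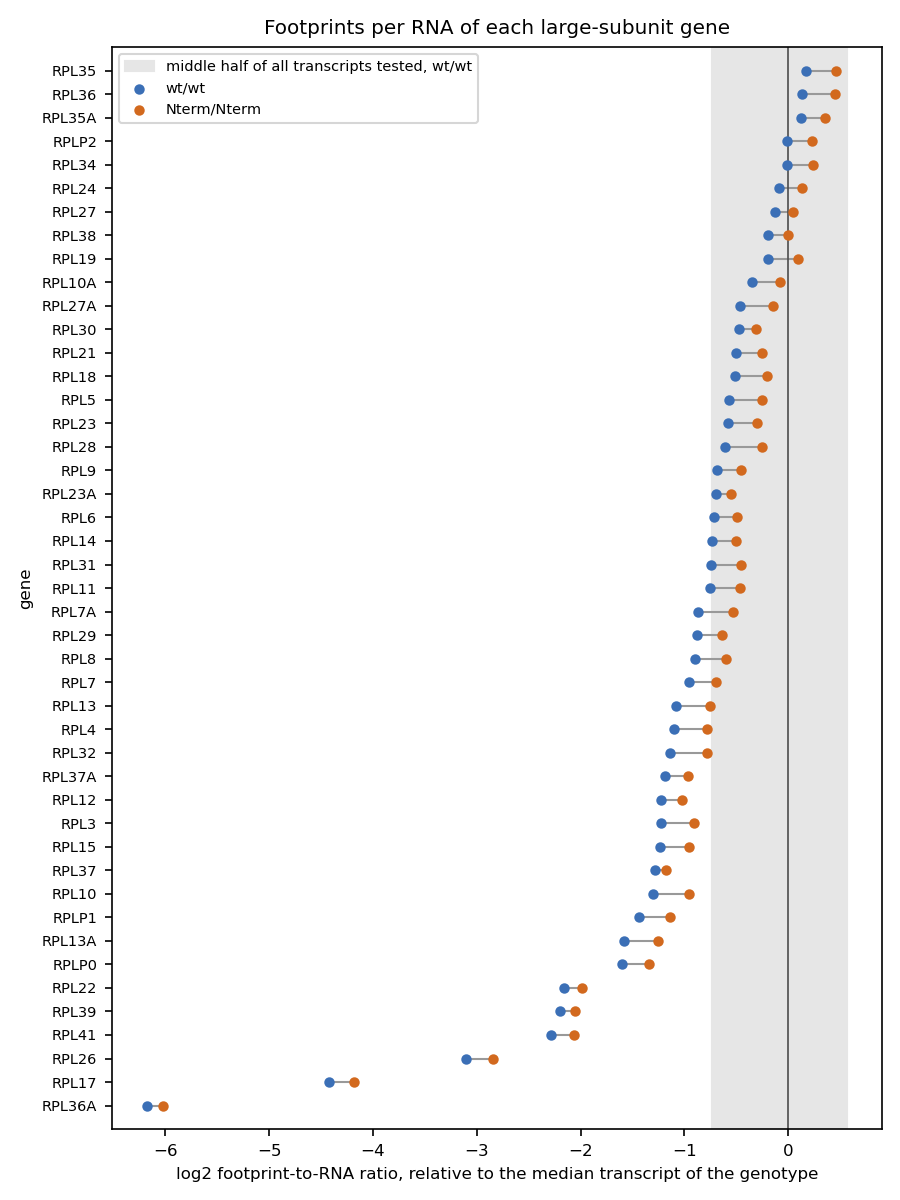
Footprint-to-RNA ratio of each of the 45 genes on the log2 scale, relative to the median of all transcripts tested in the same genotype (horizontal axis), in wt/wt (blue) and Nterm/Nterm (orange), with genes ordered by the wt/wt value and the middle range of all transcripts, -0.74 to 0.57, in grey. RPL36A, RPL17 and RPL26 lie at -6.18, -4.43 and -3.10 in wt/wt, and every orange point lies to the right of its blue one.

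Related gene lists place these values. Of 31 small-subunit genes, 17 were lower in RNA and 0 higher, with a median log2 change of -0.15, and their median ratio change was 0.25, close to the large-subunit values. In footprints 1 of these 31 was higher and 0 lower. Of 16 other TOP mRNAs, among them elongation factors, 6 were lower in RNA, with a median of -0.12 in RNA and 0.19 in the ratio. The paralogs of the members that had a named transcript numbered 5 of 7, and 0 of them passed in RNA by edgeR, with 2 below an unadjusted p of 0.05. All 5 fitted RNA values were below 0, as were 50.1% of all transcripts. The paralogs' median log2 change was -0.15 in RNA and 0.06 in the ratio.

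Genes that serve large-subunit assembly, or belong to the mitochondrial ribosome, had medians near 0. Of 49 large-subunit assembly factors tested, 1 was lower and 2 higher in RNA, with a median of 0.01, and their median ratio change was 0.02. Of 49 proteins of the mitochondrial large subunit, 2 were lower and 0 higher, with medians of -0.03 in RNA and 0.06 in the ratio. In wt/wt both lists lay above the median transcript in footprints per RNA, with medians of 0.55 and 0.89, where the 45 members lay at -0.75. The difference between these lists and the members was not tested.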

How the data were processed

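The authors deposited whole-number counts per transcript, not normalised, for 12 libraries, and a table with the mean ratio of footprints to RNA per genotype, the ratio between genotypes and an unadjusted p-value. Per the submitters' processing notes, which assign no roles, the tools were Salmon 1.4.0, Bowtie2 2.3.4.3, cutadapt 2.4, UMI-tools 1.0.1, limma and edgeR, and the build GRCh37. In wt/wt, a weighted sum of same-numbered footprint-to-RNA count ratios came within 2% of the deposited means for 10669 of 10893 transcripts. Its weights were fitted to those means, without the transcripts of highest deposited ratio. Unfitted ratios, scaled by library totals only, came within 1% for 24 of 10917 transcripts, with a median difference of 4.75%. Gene names came from the deposited ratio table.

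Samples were grouped by title into 4 groups of 3 libraries. The tests used edgeR 4.0.16 under R 4.3.3 (TMM factors, filterByExpr, two-sided quasi-likelihood F test, Benjamini-Hochberg adjustment over all transcripts tested, threshold 0.05). RNA and footprints were fitted separately, and the ratio change as the assay-by-genotype interaction in 12 libraries, with factors set within each assay. The ratio within a genotype was centred on the median of all transcripts tested. The scaling removes changes shared by most transcripts, so changes are relative to these. CPM are counts scaled by the filtered library total times its TMM factor. Each SE was taken as the absolute change over the root of F, and 95% intervals use the moderated degrees of freedom. The fits were tested on simulated data. Alternatives with DESeq2 1.42.0, limma-voom (limma 3.58.1), other factors, no filter, a replicate block and libraries left out were run.

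The members, gene lists and tests were chosen with earlier results of these data known. Library values are given for the members with the 5 largest and 5 smallest RNA changes, the 5 largest footprint and ratio changes, the 3 highest and 3 lowest ratios in wt/wt, and 10 fixed members: RPL5, RPL10, RPL11, RPL22, RPL38, RPL39, RPL41, RPLP0, RPLP1 and RPLP2. The labels do not call replicates separate cultures, and p-values then measure the spread of these libraries only. Deviations from the group means of same-numbered RNA libraries of the genotypes correlated at 0.22, 0.24 and 0.46 over 11699 transcripts. The RNA replicate number was therefore used as a block in an alternative fit. The main RNA tests, with their SE and adjusted p, did not use this pairing. For footprints these correlations were 0.02, 0.14 and 0.29, and the main footprint tests were not paired either.

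Member counts per library ran from 2451 to 27677 for RNA and from 26 to 8888 for footprints. Those of RPL36A were the only ones under 100. Start sites came from RefSeq tables of GRCh38.p14. Results of some genes are not reported here.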

Additional observations from a re-analysis of the deposited data

How the results depend on the processing

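Leaving out 1 library at a time gave 3 to 35 members lower in RNA, 0 to 3 higher in footprints, 0 with a higher or lower ratio, and 36 to 38 below the median transcript in wt/wt. The medians ranged from -0.21 to -0.14 in RNA, 0.04 to 0.14 in footprints, 0.21 to 0.30 for the ratio change and -0.82 to -0.69 for the ratio in wt/wt. The cause was not tested.

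Without a filter on low counts 1 member was higher in footprints. DESeq2 called 14 members with a higher ratio, among 1026 transcripts that its own filter left for adjustment. In the replicate block fit, which uses the library number as a block, 3 members (RPL28, RPL32 and RPL36) had a higher ratio and 16 transcripts in all did. Same-numbered RNA and footprint libraries correlated at 0.03, 0.08 and 0.26 within wt/wt, against 0.19, 0.38 and 0.46 within Nterm/Nterm. The main ratio fit did not pair them, although the Nterm/Nterm values were about as high as those between RNA libraries. The count of members with a higher ratio, 0 in the main fit and 3 with the block, depends on this choice. The block changed no footprint call of a member, while footprint calls over all transcripts rose from 1800 to 2317. Members higher in footprints at an unadjusted edgeR p below 0.05 numbered 3 with the block in place of 7.

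Grouping the footprint samples by their genotype tag reverses the footprint contrast by construction. The footprint median became -0.091, with RPL32 at -0.21, RPL13A at -0.18, RPL10 at -0.16, RPL14 at -0.16 and RPLP2 at -0.15. Ratio calls over all transcripts rose from 3 to 4150. The median ratio change became 0.084, with RPL32 at -0.054 and RPL13A at -0.025, and the median ratio in wt/wt -0.62. The medians and the counts of called members kept their direction and stayed within 1.5 times under RLE, upper-quartile, total-count and ribosomal-gene-free scaling and limma-voom. With library totals only, members higher in footprints at an unadjusted p below 0.05 numbered 3 in place of 7, and those with a fitted value above 0 numbered 38 in place of 41. Summing readthrough counts, chosen after seeing the data, changed no count of called members, and the RPL17 ratio change became 0.18 in place of 0.24. Depth limits RPL36A footprints most.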
